A study of Mus musculus with 11 samples.

Results

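The genes described here are 10 components of transforming growth factor beta (TGF-beta) signalling: the ligands Tgfb1, Tgfb2 and Tgfb3, the receptors Tgfbr1 and Tgfbr2, the signal transducer Smad3, the latent complex protein Ltbp1, the thrombospondins Thbs1 and Thbs2, and the TGF-beta induced matrix protein Tgfbi. They were chosen by name, with earlier results of these data known. All 10 of 10 were measured, each by 1 probe set (a group of array probes for 1 gene), among 19938 genes tested. Levels came from Affymetrix arrays of liver RNA from male mice at 14 months of age. The 4 Mdr2-KO/IL6-KO and 4 Mdr2-KO samples were of tumour-free tissue; the first group carries knockouts of Mdr2 and IL-6, the second of Mdr2 alone, so both share the loss of Mdr2. The 3 wild-type samples were C57BL/6, and the labels of the knockout samples give no strain. Mdr2, encoded by Abcb4, is the transporter that moves phosphatidylcholine into bile, and livers without it develop bile duct injury and fibrosis. Interleukin 6 is a cytokine that induces the acute-phase response of hepatocytes. The study asked how these 3 genotypes differ in non-tumour liver.

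TGF-beta is secreted bound to its own propeptide as an inactive complex, which latent TGF-beta binding proteins such as LTBP1 anchor to the matrix. Integrins, proteases and thrombospondin 1 release the active ligand, which joins the receptors TGFBR2 and TGFBR1 and leads to phosphorylation of SMAD2 and SMAD3, transcription factors for collagen and other matrix genes. In fibrotic liver it is known as the main signal that turns hepatic stellate cells into collagen-producing myofibroblasts.

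The Abcb4 probe set read 7.83 to 8.32 in Mdr2-KO/IL6-KO, 7.54 to 7.98 in Mdr2-KO and 9.74 to 9.95 in wild-type livers on the log2 scale, which checks the Mdr2 label. Array medians lay between 5.09 and 5.23 and every pair of arrays had a Pearson r of 0.976 to 0.990 over probe sets. The hepatocyte marker Alb averaged 13.3, and the dimmest of 8 measured hepatocyte markers, Asgr1, was at the 97.2 percentile of genes. None of the 10 genes (0) lies on the chromosome that holds Abcb4 and Il6, so none neighbours a targeted gene. All levels below are log2 values, and levels of different genes are not set against each other, since each probe set has its own brightness. The number of arrays limits the precision.

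The starting regions of 3 of these genes are shown because their expression separated or did not separate the knockout from the wild-type arrays: every knockout array was above every wild-type array for Tgfb2 and Thbs2, and not for Tgfb1. Ltbp1 also separated and had an entry, with 2 annotated start regions, but is not printed. The sequences are the 250 bases before the annotated start, from RefSeq on build GRCm38.p6, and 8 of the 10 genes had an entry; Tgfb3 and Thbs1 did not match. Tgfb2 lies on the minus strand (chr1:186705990-186706239), Thbs2 on the minus strand (chr17:14694263-14694512) and Tgfb1 on the plus strand (chr7:25686752-25687001). Capitals mark matches, on either strand, to the TATA box TATAAA, the GC box GGGCGG, the SMAD-binding CAGA box CAGAC and the cAMP response element TGACGTCA.
Tgfb2: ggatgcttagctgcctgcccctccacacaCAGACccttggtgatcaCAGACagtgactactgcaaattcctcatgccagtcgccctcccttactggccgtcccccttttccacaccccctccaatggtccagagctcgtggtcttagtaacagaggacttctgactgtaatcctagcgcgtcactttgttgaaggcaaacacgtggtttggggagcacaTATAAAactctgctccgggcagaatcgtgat
Thbs2: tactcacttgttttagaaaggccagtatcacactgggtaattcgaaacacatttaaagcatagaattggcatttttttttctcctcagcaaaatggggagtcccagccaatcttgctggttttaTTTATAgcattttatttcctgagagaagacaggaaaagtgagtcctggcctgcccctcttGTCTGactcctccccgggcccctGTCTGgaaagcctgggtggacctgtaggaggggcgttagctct
Tgfb1: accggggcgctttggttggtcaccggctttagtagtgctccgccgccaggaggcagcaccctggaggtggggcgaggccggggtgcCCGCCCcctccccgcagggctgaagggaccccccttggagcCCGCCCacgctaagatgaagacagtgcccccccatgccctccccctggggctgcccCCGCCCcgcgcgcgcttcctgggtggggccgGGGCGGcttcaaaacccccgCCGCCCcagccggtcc
The Tgfb2 region held a TATA box whose first base is at -31 and 2 CAGA boxes, at -221 and -204. Thbs2 had 2 CAGA boxes, at -66 and -43, and a TATA box match on the opposite strand at -126. Tgfb1 had 5 GC boxes, no TATA box and no CAGA box, with 75.2% G and C against 53.6% in Tgfb2 and 46.8% in Thbs2. Of 27025 such regions, 1 per gene, 13% held the TATA box, 32.9% the GC box, 42.1% the CAGA box and 1.62% the cAMP response element. Among the 8 genes only Ltbp1 held the last, at -73 in 1 of its 2 annotated start regions. No pair of marked matches overlapped in the 3 printed sequences. CAGA boxes also occurred in genes whose groups overlapped wild type. Tgfbi had 2, at -239 and -85, and Tgfbr1 had 1, at -203 in 1 of its 2 start regions. Tgfbr2, which overlapped wild type in Mdr2-KO only, and Ltbp1, which separated in both comparisons, held them as well, and Smad3 did not. These matches are a description of the letters and were not tested against expression.

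Tgfb3 had the largest differences from wild type among the 10 genes. It rose in both knockout groups relative to wild type, and Thbs1 rose in Mdr2-KO/IL6-KO livers. All 10 genes had a positive difference in both comparisons with wild type, though for most of them it did not pass the test across all genes. Between the knockout groups no member passed.

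Tgfb3, the TGF-beta isoform best known from palate and lung development, whose propeptide carries an integrin-binding motif as that of Tgfb1 does, read 5.33, 5.44, 5.71 and 5.38 in Mdr2-KO/IL6-KO, 5.66, 5.55, 5.74 and 5.47 in Mdr2-KO, and 4.87, 4.51 and 4.61 in wild-type livers. Every knockout array was above every wild-type array, and the knockout groups overlapped each other. The rise was 1.74-fold in Mdr2-KO/IL6-KO (log2 difference 0.80 ± 0.12 SE, adjusted p = 0.00165), while Mdr2-KO livers had 1.92 times the wild-type level (0.94 ± 0.12 SE, adjusted p = 0.00126), by limma with Benjamini-Hochberg adjustment over all 19938 genes. Both comparisons use the same 3 wild-type arrays. Among all genes Tgfb3 ranked 120th and 28th by p in these comparisons. Under 18 alternatives in which it was tested, including the removal of each array, the call held in both comparisons, with adjusted p of at most 0.0188 and 0.0334, the highest in each case without moderation of the spread.

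Tgfb1, the isoform made by macrophages and stored in platelets, read 6.61, 6.43, 6.99 and 6.99 in Mdr2-KO/IL6-KO, 6.71, 6.56, 6.74 and 6.85 in Mdr2-KO, and 6.83, 6.67 and 6.40 in wild-type livers. The 3 groups overlapped, and Mdr2-KO/IL6-KO replicates 3 and 4, both at 6.99, were the highest of all arrays. The log2 difference from wild type was 0.12 (95% confidence interval -0.19 to 0.44, adjusted p = 0.799) in Mdr2-KO/IL6-KO and 0.08 (-0.23 to 0.40, adjusted p = 0.941) in Mdr2-KO. These intervals allow a level up to 1.35 and 1.32 times that of wild type.

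Tgfb2, the isoform whose propeptide lacks the integrin-binding motif, read 4.86, 5.08, 5.45 and 4.995 in Mdr2-KO/IL6-KO, 5.17, 4.995, 4.995 and 5.14 in Mdr2-KO, and 4.68, 4.78 and 4.59 in wild-type livers. All knockout arrays were above all wild-type arrays, by as little as 4.86 against 4.78. The values were 1.33-fold (log2 difference 0.41 ± 0.12 SE, adjusted p = 0.0901) and 1.31-fold (0.39 ± 0.12 SE, adjusted p = 0.207) those of wild type, and neither passed. On 3 of the knockout arrays Tgfb2 had exactly the same deposited value, as 10.1% of all genes had on 3 or more arrays.

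Whether the ligands changed by unequal amounts was read from the difference of their log2 values within each array. Tgfb3 minus Tgfb1 averaged -1.29 ± 0.26 in Mdr2-KO/IL6-KO and -1.11 ± 0.18 in Mdr2-KO, against -1.97 ± 0.19 in wild type (SD, n = 4, 4 and 3), with no overlap with wild type. Tgfb3 minus Tgfb2 averaged 0.37 ± 0.087 and 0.53 ± 0.17, against -0.020 ± 0.23 in wild type, again with no overlap. Each of these comparisons gave an exact two-sided permutation p = 0.0571, the smallest that 4 against 3 arrays can give, and 0.0571 after adjustment over the 6 such tests made. The groups are too small for this test to pass 0.05. The test was added after the levels were seen, so the lack of overlap is no separate evidence.

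**Figure D1:**
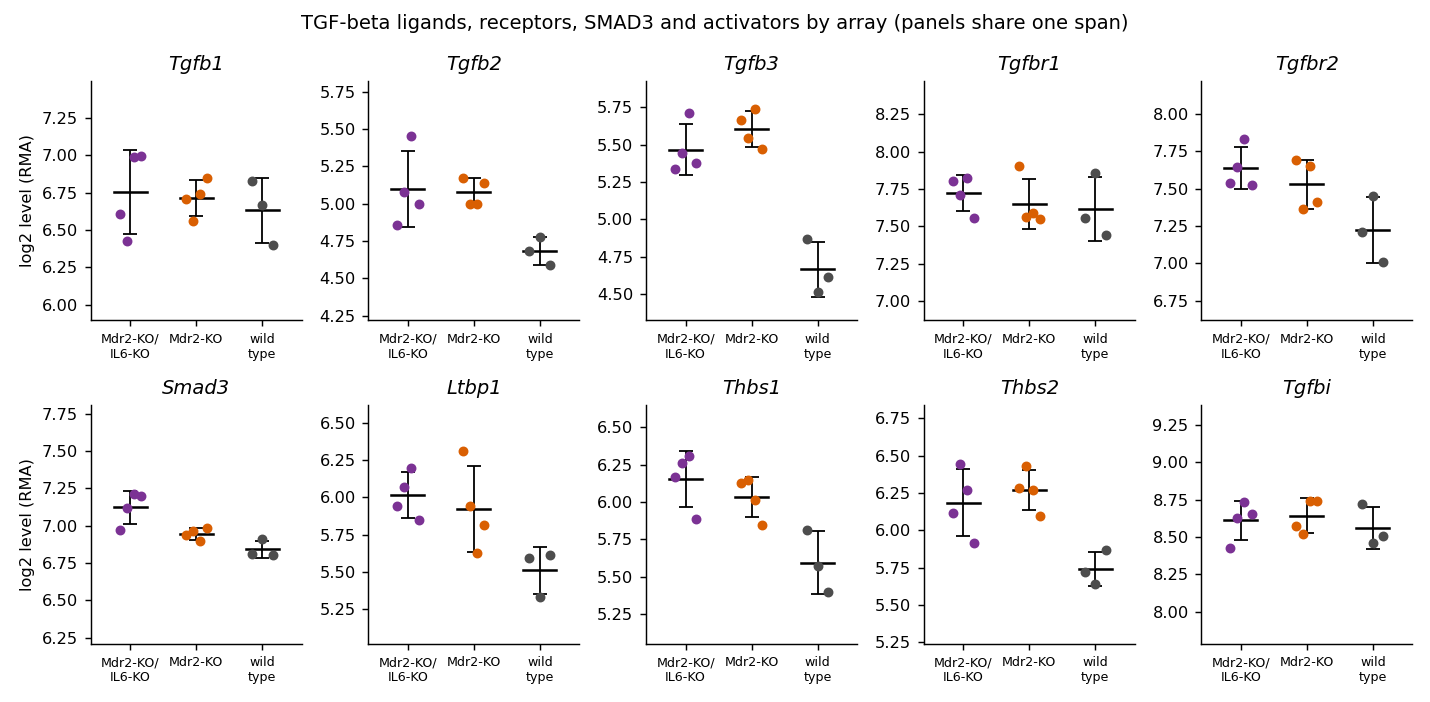
Log2 level (RMA) of each gene on each array, with Mdr2-KO/IL6-KO (n = 4), Mdr2-KO (n = 4) and wild type (n = 3) from left to right; dots are arrays, lines are means and bars are SD. Knockout arrays of Tgfb2, Tgfb3, Ltbp1, Thbs1 and Thbs2 lie above all wild-type arrays, while Tgfb1, Tgfbr1 and Tgfbi overlap.

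Of the receptors, Tgfbr2, which binds the ligand first and phosphorylates its partner, read 7.54, 7.65, 7.84 and 7.53 in Mdr2-KO/IL6-KO, 7.69, 7.36, 7.65 and 7.41 in Mdr2-KO, and 7.21, 7.45 and 7.01 in wild-type livers. The Mdr2-KO/IL6-KO arrays lay above all wild-type arrays, whereas 2 Mdr2-KO arrays, at 7.36 and 7.41, lay below wild-type replicate 2. It was 1.33-fold (adjusted p = 0.0905) and 1.24-fold (adjusted p = 0.408) the wild-type level and did not pass in either comparison. Tgfbr1, the kinase that phosphorylates the SMADs, read 7.81, 7.71, 7.82 and 7.56 in Mdr2-KO/IL6-KO, 7.90, 7.56, 7.59 and 7.55 in Mdr2-KO, and 7.56, 7.86 and 7.44 in wild-type livers. Its groups overlapped, and its log2 differences from wild type were 0.11 (95% interval -0.15 to 0.37) and 0.03 (-0.23 to 0.29). Tgfbr2 minus Tgfbr1 within arrays averaged -0.087 ± 0.12 and -0.12 ± 0.13, against -0.40 ± 0.047 in wild type (SD, n = 4, 4 and 3; exact permutation p = 0.0571 each), without overlap.

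Smad3 read 6.97, 7.11, 7.21 and 7.20 in Mdr2-KO/IL6-KO, 6.93, 6.96, 6.89 and 6.98 in Mdr2-KO, and 6.81, 6.91 and 6.81 in wild-type livers. The Mdr2-KO/IL6-KO arrays were above every wild-type array, and the Mdr2-KO group, with an SD of only 0.038, overlapped both other groups. Its log2 difference from wild type was 0.28 ± 0.083 SE (1.22-fold, adjusted p = 0.0830) in Mdr2-KO/IL6-KO and 0.10 ± 0.083 SE (adjusted p = 0.806) in Mdr2-KO. Differences in Smad3 RNA say nothing of its phosphorylation, which arrays do not measure.

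Among the proteins that store and release the ligand, Thbs1, whose product binds the propeptide and frees TGF-beta, read 6.17, 6.26, 6.30 and 5.89 in Mdr2-KO/IL6-KO, 6.13, 6.15, 6.01 and 5.85 in Mdr2-KO, and 5.81, 5.57 and 5.40 in wild-type livers. No knockout array overlapped wild type, although the lowest of each knockout group lay within 0.1 of wild-type replicate 1. It rose 1.47-fold in Mdr2-KO/IL6-KO (log2 difference 0.56 ± 0.13 SE, adjusted p = 0.0224) and was 1.36-fold the wild-type level in Mdr2-KO (0.44 ± 0.13 SE, adjusted p = 0.144). The call in Mdr2-KO/IL6-KO was lost without wild-type replicate 2 (adjusted p = 0.0790) or 3 (0.117), without Mdr2-KO/IL6-KO replicate 1 (0.0601), 2 (0.0680) or 3 (0.0701), and in the unmoderated model (0.0818), and over its 19 alternatives the adjusted p ran between 0.0102 and 0.117.

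Thbs2, a relative that is not known to activate TGF-beta and acts in matrix assembly, read 6.12, 6.44, 6.27 and 5.91 in Mdr2-KO/IL6-KO, 6.28, 6.43, 6.27 and 6.10 in Mdr2-KO, and 5.72, 5.64 and 5.86 in wild-type livers. The groups did not overlap wild type, with Mdr2-KO/IL6-KO replicate 4 closest to it. It was 1.36-fold (adjusted p = 0.0640) and 1.44-fold (adjusted p = 0.0607) the wild-type level. In Mdr2-KO it passed without Mdr2-KO/IL6-KO replicate 2 (adjusted p = 0.0446) or 4 (0.0341), and in Mdr2-KO/IL6-KO without replicate 4 of that group (0.0231).

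Ltbp1 read 5.94, 6.07, 6.20 and 5.85 in Mdr2-KO/IL6-KO, 6.31, 5.94, 5.63 and 5.82 in Mdr2-KO, and 5.60, 5.33 and 5.61 in wild-type livers. The lowest Mdr2-KO array, at 5.63, was barely above the highest wild-type array, and the spread in that group was wide (SD 0.29, n = 4). Its level was 1.42-fold (adjusted p = 0.0777) and 1.33-fold (adjusted p = 0.293) that of wild type. In Mdr2-KO/IL6-KO the adjusted p was 0.0310 without Mdr2-KO replicate 1, 0.0481 without Mdr2-KO replicate 3 and 0.0287 in a fit of these 2 groups alone.

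Tgfbi, a secreted adhesion protein of the matrix and a textbook TGF-beta response gene, read 8.43, 8.63, 8.73 and 8.66 in Mdr2-KO/IL6-KO, 8.57, 8.52, 8.74 and 8.74 in Mdr2-KO, and 8.72, 8.46 and 8.51 in wild-type livers. All groups overlapped. The log2 difference was 0.05 (95% interval -0.17 to 0.27, adjusted p = 0.898) in Mdr2-KO/IL6-KO and 0.08 (-0.14 to 0.30, adjusted p = 0.903) in Mdr2-KO.

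As a group, 2 of the 10 members were called higher in Mdr2-KO/IL6-KO relative to wild type, where 4.19% of all genes were called and 2.91% were called higher. In Mdr2-KO relative to wild type 1 of 10 was called, where 1.26% of all genes were called and 0.948% higher. No member was called lower. All Mdr2-KO/IL6-KO arrays were above all wild-type arrays for 7 members, as for 9.85% of all genes, and all Mdr2-KO arrays for 5 members, as for 5.49% of all genes. The median log2 difference of the 10 was 0.41 and 0.35, against -0.00056 and -0.0056 over all genes. Since the members were chosen with earlier results of these data known, these shares are a description and no test of the group.

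Setting the double knockout beside the single one addresses the effect of interleukin 6 loss when Mdr2 is absent. None of the 10 members (0) was called by limma, and 0.00502% of all genes were. Smad3 alone had an unadjusted p under 0.05 (log2 difference 0.18 ± 0.077 SE, 95% interval 0.014 to 0.35, adjusted p = 0.9995), with Mdr2-KO/IL6-KO replicate 1 inside the range of the Mdr2-KO arrays. No member (0) had all Mdr2-KO/IL6-KO arrays above all Mdr2-KO arrays, as 1.60% of all genes had, and none (0) had them all below. The log2 difference of Tgfb3 was -0.14 (95% interval -0.37 to 0.09), which allows a level between 0.77 and 1.07 times that of Mdr2-KO. For Tgfb1 the interval was -0.25 to 0.33 and for Thbs1 -0.13 to 0.37. The 10 differences ran between -0.14 and 0.18, with a median of 0.06 against 0.01 over all genes.

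**Figure D2:**
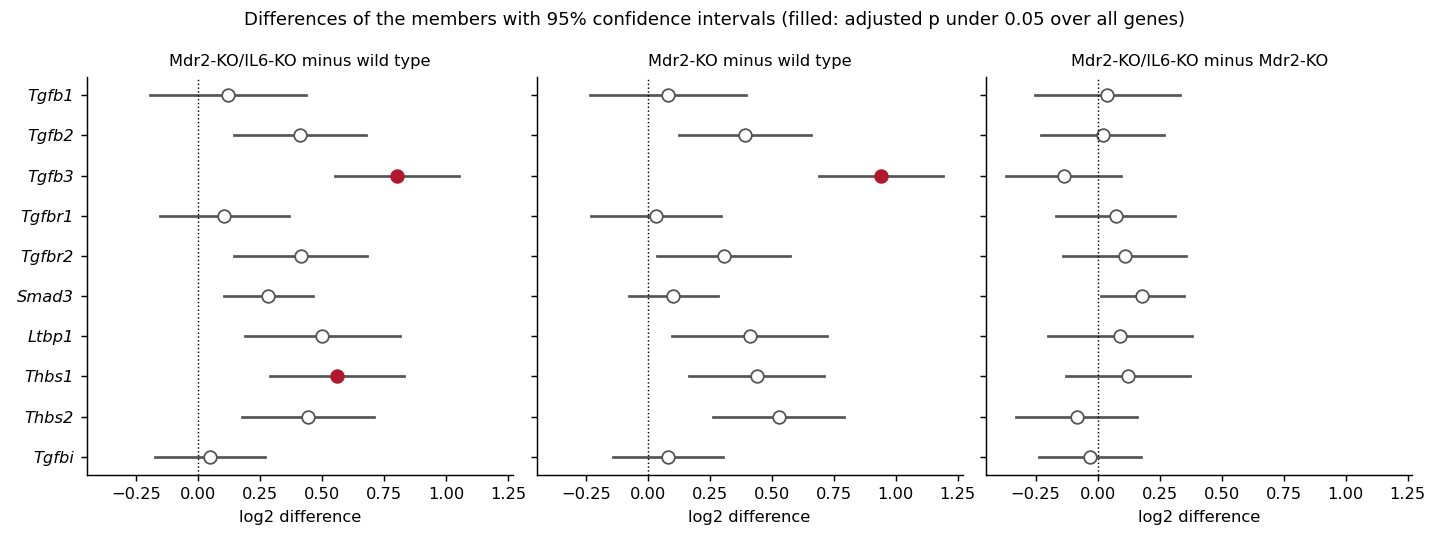
Log2 differences of the 10 genes in the 3 comparisons (dots) with 95% confidence intervals (bars); filled dots have an adjusted p under 0.05 over all genes. Tgfb3 is filled in both comparisons with wild type, Thbs1 in Mdr2-KO/IL6-KO minus wild type, and no gene between the knockout groups.

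The rest of the pathway was read in 8 lists of 95 genes, of which 90 had a probe set of their own. In Mdr2-KO/IL6-KO relative to wild type 17 of the 90 rose and 1 fell. Of all genes 2.91% were called higher there and 4.19% in either direction. In Mdr2-KO 9 rose and none (0) fell, where these shares were 0.948% and 1.26%. At an unadjusted p under 0.05, 31 were higher and 6 lower in Mdr2-KO/IL6-KO, and 23 higher and 3 lower in Mdr2-KO. Of all 19938 genes, 1874 were higher and 1216 lower, and 1135 higher and 816 lower, at that threshold. The same shares apply to the single lists below, which were chosen with earlier results of these data known. The median log2 difference of the 90 was 0.13 and 0.09. Col1a1, Mmp2 and Col1a2 had the 3 largest rises in both comparisons. Between the knockout groups 0 of 90 were called by limma, with 4 higher and 2 lower at an unadjusted p under 0.05. Of all 19938 genes 555 were higher and 406 lower at that threshold.

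Of 22 measured TGF-beta target genes, 7 rose in Mdr2-KO/IL6-KO and 5 in Mdr2-KO, with median log2 differences of 0.28 and 0.17. Col1a1, a chain of type I collagen, rose 2.37-fold and 2.03-fold (adjusted p = 0.000623 and 0.00561), and its partner chain Col1a2 2.22-fold and 1.92-fold (0.000738 and 0.00679). Col3a1, of fibrillar collagen III, rose 1.96-fold and 1.82-fold, Sparc, a collagen-binding glycoprotein, 1.76-fold and 1.51-fold, and Timp1, an inhibitor of metalloproteinases, 1.81-fold and 1.77-fold. Tagln, a smooth muscle protein, and Lox, a collagen cross-linking enzyme, rose 1.41-fold and 1.34-fold in Mdr2-KO/IL6-KO. Acta2, the actin of contractile myofibroblasts, differed from wild type by 0.05 (adjusted p = 0.936) and 0.14 (adjusted p = 0.878) on the log2 scale. Ccn2, a widely used TGF-beta response gene, differed by 0.59 (adjusted p = 0.156) and 0.51 (adjusted p = 0.404).

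In the latent complex and matrix storage list 2 of 8 rose in Mdr2-KO/IL6-KO, Fbn2, a microfibril protein that holds latent complexes (2.04-fold, adjusted p = 0.00137), and Ltbp2, a microfibril protein of the LTBP family (1.50-fold, adjusted p = 0.00574). In Mdr2-KO 1 of 8 rose, Ltbp2 (1.43-fold, adjusted p = 0.0289), and Fbn2 was at 1.53-fold (adjusted p = 0.0652). At an unadjusted p under 0.05, 4 of the 8 were higher and 2 lower in Mdr2-KO/IL6-KO, and 3 higher and 1 lower in Mdr2-KO. The lower genes were Fn1 and Nrros in Mdr2-KO/IL6-KO (log2 difference -0.28 and -0.36) and Nrros in Mdr2-KO (-0.29), none of them called. Of 13 integrins and proteases that release TGF-beta, 4 rose in Mdr2-KO/IL6-KO and 2 in Mdr2-KO. Mmp2, a gelatinase, rose 2.31-fold and 2.13-fold, and Itgb6, the integrin subunit of bile duct epithelium that pulls the ligand from its propeptide, 1.45-fold and 1.49-fold (adjusted p = 0.0234 and 0.0341). Itgav, the alpha subunit that pairs with it, rose 1.28-fold and Itgb8, another activating beta subunit, 1.51-fold in Mdr2-KO/IL6-KO (adjusted p = 0.0351 and 0.0448).

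Of 15 SMADs and their regulators, 2 rose in Mdr2-KO/IL6-KO and none (0) in Mdr2-KO, where 1 had an unadjusted p under 0.05. Both are feedback inhibitors of the pathway: Pmepa1, which keeps SMADs from the receptor, rose 1.53-fold (adjusted p = 0.00455; 1.35-fold with adjusted p = 0.0698 in Mdr2-KO), and Smad7, the inhibitory SMAD, 1.37-fold (adjusted p = 0.0196). Smad7 differed from wild type by 0.08 (adjusted p = 0.909) on the log2 scale in Mdr2-KO, and the difference between the knockout groups itself did not pass (0.37, adjusted p = 0.635). Of 4 TGF-beta binding proteoglycans Bgn rose 1.54-fold and 1.49-fold (adjusted p = 0.00258 and 0.00964). Of 15 activin, inhibin, BMP and GDF ligands and antagonists, Gdf10 rose 1.41-fold in Mdr2-KO/IL6-KO (adjusted p = 0.0153). Bmp10, a ligand of endothelial receptors, fell 1.49-fold there (adjusted p = 0.0258), and none (0) was called in Mdr2-KO. At an unadjusted p under 0.05, 4 were higher and 3 lower in Mdr2-KO/IL6-KO, and 2 higher and 2 lower in Mdr2-KO. Inhbe had the largest fall of the 90 pathway genes. Its log2 differences were -0.79 and -0.92 (limma, adjusted p = 0.0867 and 0.0899), neither called. No co-receptor or related receptor (0 of 10) and no other thrombospondin (0 of 3) was called in either comparison; at an unadjusted p under 0.05 there were 2 and 1 of the 10, and 0 of the 3. Pathway calls depended on single wild-type arrays, as did calls over all genes. In Mdr2-KO, 9 calls became 4 without wild-type replicate 2 and 5 without replicate 3, and only Col1a1, Col1a2 and Col3a1 kept theirs in all 11 fits that left out 1 array. Without moderation of the spread none (0) of the 9 was called by the linear model, these 3 included. Over all genes in Mdr2-KO, 189 higher and 63 lower calls became 104 and 44 without wild-type replicate 2, and 90 and 73 without replicate 3. Without moderation they became 31 and 12. In Mdr2-KO/IL6-KO, 18 pathway calls became 9 without wild-type replicate 2 and 12 without replicate 3. They became 11 or 12 without replicate 2 or 1 of the Mdr2-KO/IL6-KO group. Fbn2, Ltbp2, Mmp2, Pmepa1, Bgn, Sparc and the 3 collagen genes kept theirs in all 11. Over all genes there, 580 higher and 256 lower calls became 367 and 166 without wild-type replicate 2, and 325 and 196 without replicate 3. Without Mdr2-KO/IL6-KO replicate 2 or 1 they became 416 and 151, or 375 and 160.

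**Figure D3:**
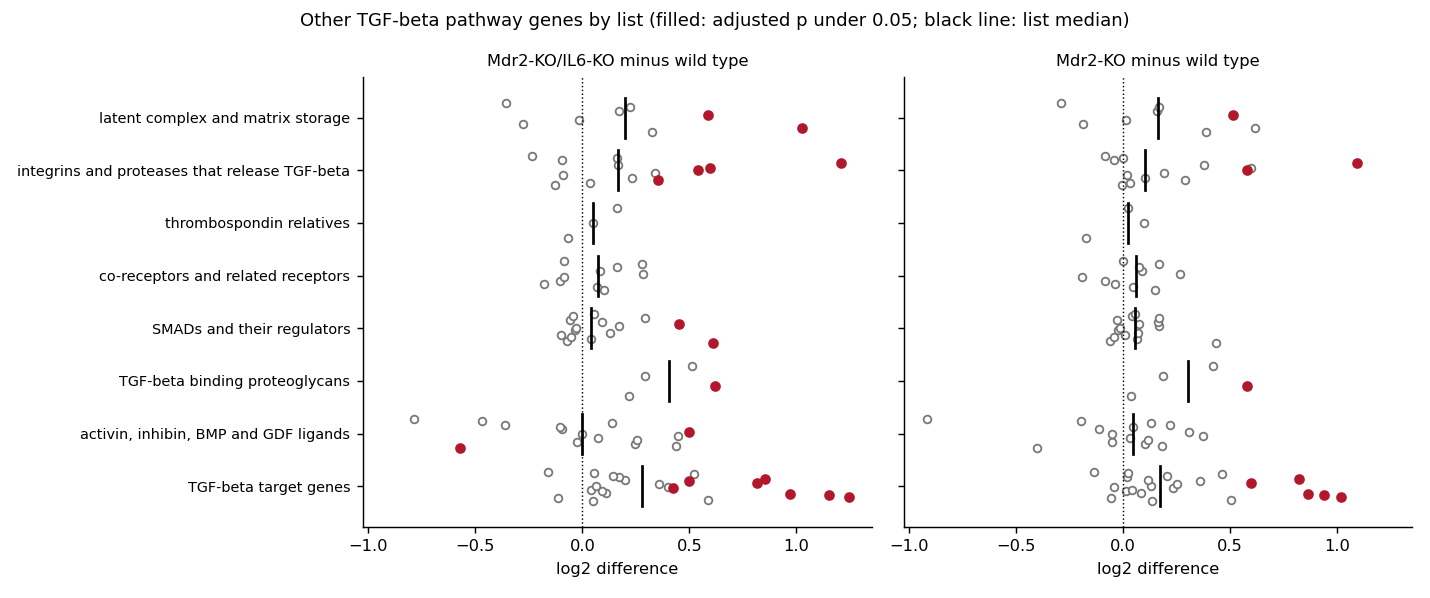
Log2 differences of 90 other pathway genes, by list, in Mdr2-KO/IL6-KO minus wild type (left) and Mdr2-KO minus wild type (right); dots are genes, filled where the adjusted p was under 0.05, and black lines are list medians. Col1a1, Mmp2 and Col1a2 lie farthest to the right in both. Most SMADs and receptors gather near 0, apart from Pmepa1 (0.61 left, 0.44 right) and Smad7 (0.45 left).

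Markers of other liver cells moved with the genotype in the same arrays. Of 14 stellate cell and myofibroblast markers 4 rose in Mdr2-KO/IL6-KO and 3 in Mdr2-KO, among them Dpt 3.38-fold and 3.05-fold, Pdgfrb 1.78-fold and 1.64-fold and Pdgfra 1.65-fold and 1.66-fold. In Mdr2-KO/IL6-KO 10 of the 14 had a positive log2 difference and in Mdr2-KO 7, with medians of 0.19 and 0.05, so the list means rest on a few genes. The stellate cell markers Ngfr, Gfap and Reln had log2 differences of -0.07, -0.09 and -0.10 in Mdr2-KO/IL6-KO and of -0.21, -0.16 and -0.08 in Mdr2-KO, none of them called. The list mean by array was 6.40 to 6.61 in Mdr2-KO/IL6-KO, 6.33 to 6.51 in Mdr2-KO and 6.11 to 6.19 in wild type, without overlap with wild type. Of 9 measured bile duct cell markers 5 rose in each comparison, and the list mean was 6.10 to 6.43 and 6.14 to 6.33, against 5.34 to 5.45 in wild type. In RNA of whole tissue, more cells of a type and more RNA per cell cannot be told apart. The part of these cell types in the rise of Tgfb3, Thbs1 and the matrix genes was not tested.

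Endothelial marker means were 7.07 to 7.25 and 6.97 to 7.16, against 6.64 to 6.96 in wild type, with 2 and 1 of 10 markers called higher. Again there was no overlap, though in Mdr2-KO only by 6.971 against 6.964. Cd34 had the largest log2 differences, 1.41 and 1.28, against list medians of 0.18 and 0.13. Of the 10, 9 and 8 had a positive difference. Cdh5 differed by -0.08 and -0.18 and Pecam1 by 0.09 and -0.10, none of these called. Macrophage and Kupffer cell means overlapped, at 7.12 to 7.29 and 6.95 to 7.36 against 6.42 to 7.39. The low wild-type array was replicate 3. Of 12 markers 2, Mmp12 and Gpnmb, rose in each comparison. Of the 12, 5 and 6 had a positive difference, with list medians of -0.015 and 0.014. Cd5l differed by -0.54 and -0.60, Csf1r by -0.29 and -0.34 and Adgre1 by -0.36 and -0.37, none of these called. Platelet marker means also overlapped, at 4.96 to 5.18 and 4.87 to 5.26 against 5.08 to 5.37, with Ppbp, a platelet chemokine, 1.75-fold lower in Mdr2-KO/IL6-KO (adjusted p = 0.0232) and 4 of 7 markers measured. Pf4, another platelet chemokine, had the opposite sign there (log2 difference 0.38, adjusted p = 0.205). T, NK and B cell means were 4.64 to 4.78 and 4.60 to 4.96, against 4.80 to 5.36. Mdr2-KO/IL6-KO thus lay below wild type, though only by 4.779 against 4.802, and Mdr2-KO overlapped it. Of 9 markers 1, Cd8a, fell in Mdr2-KO/IL6-KO. At an unadjusted limma p under 0.05, 5 were lower and 1 higher there, and 2 lower and 1 higher in Mdr2-KO. Hepatocyte means overlapped at 11.7 to 11.9 and 11.7 to 11.9, against 11.8 to 11.9, with none (0) of 8 called. At an unadjusted limma p under 0.05, 3 were lower and 1 higher in Mdr2-KO/IL6-KO, and 1 was higher in Mdr2-KO. All Mdr2-KO/IL6-KO arrays were below all wild-type arrays for 5 of the 8, and above for 1. Of all 19938 genes, 1284 lay below and 1964 above in this way.

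**Figure D4:**
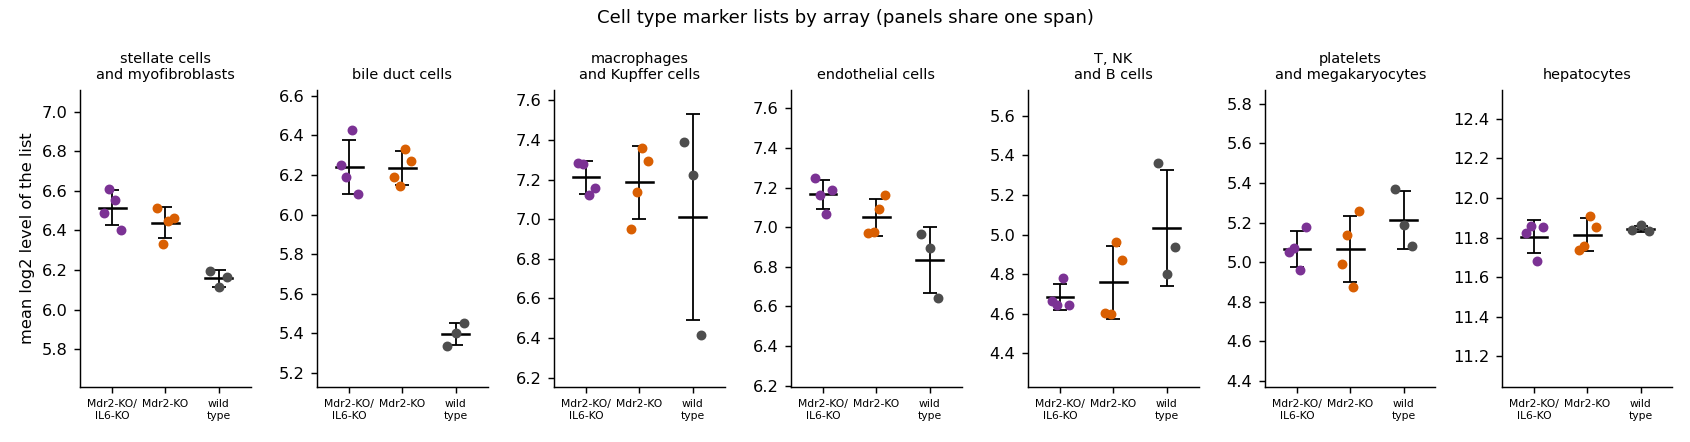
Mean log2 level of each cell type marker list on each array, with Mdr2-KO/IL6-KO (n = 4), Mdr2-KO (n = 4) and wild type (n = 3) from left to right; dots are arrays, lines are means and bars are SD. Stellate cell, bile duct and endothelial lists are higher on every knockout array than on every wild-type array, and macrophage, platelet and hepatocyte lists overlap. The T, NK and B cell list is lower on every Mdr2-KO/IL6-KO array than on every wild-type array, and overlaps wild type in Mdr2-KO.

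The genes whose levels followed Tgfb3 most closely over the 11 arrays were Dpysl3 (Pearson r = 0.96), Bgn (0.95) and Ttc39a (0.95), all called higher in both comparisons with wild type, for example Dpysl3 at 1.71-fold in Mdr2-KO/IL6-KO and 1.73-fold in Mdr2-KO. Those nearest to Thbs1 were Itgav (0.97), Cfap44 (0.95) and Myadm (0.95), of which Itgav was called in Mdr2-KO/IL6-KO, Myadm in both comparisons and Cfap44 in neither. Such values describe these 11 arrays, which share the split between knockout and wild-type livers.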

How the data were processed

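The authors deposited 1 table of log2 values, levels of 35557 probe sets on 11 arrays, with RMA and Partek named in the submitters' processing notes; their versions are not stated. The deposited values were used without further normalization. Of the probe sets 21789 had 1 gene symbol in the platform annotation, 1621 had several and 12147 had none; symbols were updated by Entrez identifier (RefSeq, GRCm38.p6), and of several probe sets of a gene (999 genes) the brightest over all arrays was kept, giving 19938 genes.

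Differences were tested with limma 3.58.1 in R 4.3.3 (1 mean per group over 11 arrays, eBayes, two-sided, Benjamini-Hochberg over all genes), called at an adjusted p under 0.05, and the script was tested on simulated data. Errors are SE of differences and SD over arrays; intervals are 95%. Ligand and receptor pairs were compared within arrays by exact permutation (scipy 1.17.1), a test added after the data were seen. The labels give no batch or pairing; replicate numbers follow sample order. No label states that each array is a separate mouse, so the p-values reflect spread among these samples only, which may be technical. Wild-type and knockout titles carry different prefixes, whose meaning is not given and which cannot be told apart from genotype.

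The members and gene lists were chosen with earlier results of these data known. Named were all 10 members, up to 4 called genes of a list by lowest p in a comparison, and the 3 genes most correlated with each called member. Timp1, Tagln, Lox, Acta2, Ccn2, Asgr1, Ngfr, Gfap, Reln, Pf4, Cdh5, Pecam1, Fn1 and Nrros were chosen beyond this after their values were seen. So were Cd5l, Csf1r, Adgre1 and Inhbe. The alternatives were the mean of probe sets, a filter on dim genes, quantile, median and cyclic loess normalization, other variance models, only the 2 groups compared, a stricter threshold and leaving out each array.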

Additional observations from a re-analysis of the deposited data

Results flagged for a closer look

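In Tgfbr1 the array of Mdr2-KO replicate 1 read 7.90, the highest of its group, and the other 3 arrays lay between 7.55 and 7.59; its gap to the nearest was 0.90 of the range of the group, above the critical value of Dixon's test for 4 samples. Of 20 groups of 4 arrays examined this was the only 1, and chance gives about that many. Without it the log2 difference of Tgfbr1 in Mdr2-KO minus wild type was -0.05 in place of 0.03.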

How the results depend on the processing

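Tgfb3 was called in both comparisons with wild type under each alternative that tested it; the filter on dim genes removed it and Tgfb2, leaving 8 members. The count of members called in Mdr2-KO minus wild type was 1, and 2 with trend and robust moderation; with 1 array left out it was 1 to 2. With the dim gene filter the 1 called was Thbs2. In Mdr2-KO/IL6-KO minus wild type it was 2, and 4 with the filter (Ltbp1, Thbs1, Thbs2 and Smad3), 1 without moderation, 1 at an adjusted p under 0.01 and 1 to 3 with 1 array left out. Over all genes, calls in Mdr2-KO/IL6-KO minus wild type went from 580 higher and 256 lower to 665 and 300 with the filter. They were 356 and 140 without moderation, and 252 and 90 at an adjusted p under 0.01. In Mdr2-KO minus wild type, 189 and 63 became 209 and 62 with the filter, and 213 and 67 with trend and robust moderation. The filter tests fewer genes, and other causes were not tested. Between the knockout groups the count of members called was 0 throughout. Of the 90 pathway genes, 9 calls in Mdr2-KO became 0 without moderation (limma; 23 higher and 3 lower at an unadjusted p under 0.05 with it), 5 at an adjusted p under 0.01, and 4 to 12 with 1 array left out. The 18 calls in Mdr2-KO/IL6-KO became 9 at an adjusted p under 0.01 and 9 to 20 with 1 array left out. Over all genes, Mdr2-KO minus wild type had 31 higher and 12 lower calls without moderation, and 73 and 21 at an adjusted p under 0.01.

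Small differences changed sign when 1 array was left out. In Mdr2-KO minus wild type Tgfb1 ran between -0.035 and 0.18 and Tgfbr1 between -0.055 and 0.15, and in Mdr2-KO/IL6-KO minus wild type Tgfbi between -0.0025 and 0.13. Between the knockout groups Tgfb1 ran between -0.040 and 0.15, Tgfb2 between -0.10 and 0.10, Tgfbi between -0.073 and 0.030, Ltbp1 between -0.0085 and 0.22 and Thbs2 between -0.17 and 0.0060. None of these was called. Signal over background was not used here.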
